A study of Mus musculus with 7 samples.

Results

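The NADPH oxidases are the enzymes whose main known task is to make reactive oxygen species, and this report follows 9 of their genes, Nox1, Nox4, Cybb, Cyba, Ncf1, Ncf4, Noxo1, Noxa1 and Rac2, through LSK cells of transplanted mice. The genes were taken by symbol from the deposited table of normalized counts, in which they are 9 of 48440 genes. Nox1 was picked because its count was lower in libraries labelled PROSER1 KO than in wild-type libraries, and the other 8 were picked as its relatives and partners. For Nox1, the difference between the groups is therefore given as a description, with no test.

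LSK cells are bone marrow (BM) cells without lineage markers that carry Sca1 and cKit, the fraction that holds the hematopoietic stem cells and multipotent progenitors. Unfractionated BM of wild-type donors (4 libraries) or of donors in which PROSER1 had been knocked out constitutively with an endonuclease (PROSER1 KO, 3 libraries) was given to lethally irradiated C57BL/6 recipients, which received 9.5 Gy in 2 doses 3 hours apart, and LSK cells were sorted at day 77 for polyA RNA sequencing. Every library therefore comes from mice that had been irradiated and transplanted, and the KO is present in all donor cells and not only in the stem cells. Whether the sort kept surviving LSK cells of the recipients out is not given in the sources used here. The labels do not say whether replicates came from separate recipients, so that p-values measure only the spread between these libraries. PROSER1 is a component of the protein complexes that contain the DNA demethylating TET enzymes. The ages of the mice are not given in the sources used here.

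Each NADPH oxidase is built around a catalytic subunit of the NOX family, which sits in a membrane and passes electrons from NADPH to oxygen. Cybb encodes NOX2, the catalytic subunit of the phagocyte enzyme, Nox1 encodes a homolog best known from colon epithelium, and Nox4 encodes a homolog that is active without cytosolic activators. Cyba encodes p22phox, the membrane partner of all 3. The phagocyte enzyme is switched on when p47phox (Ncf1), p40phox (Ncf4) and the GTPase RAC2 (Rac2), among other subunits, come to the membrane, whereas NOX1 uses NOXO1 (Noxo1) in the place of p47phox and NOXA1 (Noxa1) as its activator.

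The sequences in front of the 3 catalytic genes are shown because these genes are so unequally represented in the RNA. Promoters of 7 of the 9 genes were matched by symbol in RefSeq (GRCm38.p6), and Ncf4 and Rac2 had no entry. Each line holds the 250 bases before the RefSeq start site, 5′ to 3′ on the strand of the gene, for Nox1 at chrX:134111855-134112104 (minus strand), for Cybb at chrX:9469325-9469574 (minus strand) and for Nox4 at chr7:87246399-87246648 (plus strand). Capitals mark matches of either strand to TGATAA, letters bound by GATA factors, or to GAGGAA, letters bound by ETS factors such as PU.1. Both sets of letters were chosen after the sequences had been read.
Nox1: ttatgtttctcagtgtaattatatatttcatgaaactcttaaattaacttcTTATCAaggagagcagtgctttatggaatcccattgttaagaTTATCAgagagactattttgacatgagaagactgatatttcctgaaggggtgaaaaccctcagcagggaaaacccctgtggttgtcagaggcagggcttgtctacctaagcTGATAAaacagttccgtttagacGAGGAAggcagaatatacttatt
Cybb: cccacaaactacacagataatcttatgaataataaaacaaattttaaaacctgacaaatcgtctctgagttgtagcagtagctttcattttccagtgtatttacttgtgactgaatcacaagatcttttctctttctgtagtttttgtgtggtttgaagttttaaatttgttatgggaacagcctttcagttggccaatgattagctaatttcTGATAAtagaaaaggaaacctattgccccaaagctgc
Nox4: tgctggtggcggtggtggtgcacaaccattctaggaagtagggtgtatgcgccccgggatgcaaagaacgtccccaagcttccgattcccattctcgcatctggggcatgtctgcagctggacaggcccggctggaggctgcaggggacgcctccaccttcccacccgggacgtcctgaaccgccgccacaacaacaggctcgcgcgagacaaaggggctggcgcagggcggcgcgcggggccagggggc

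The Nox1 window held 3 matches to TGATAA, which began 199, 157 and 46 bases before the start site, and 1 match to GAGGAA, 23 bases before it. Cybb held 1 match to TGATAA, 37 bases before its start site, and Cyba held 1, 215 bases before its start site. Neither set of letters was found in the windows of Nox4, Ncf1, Noxo1 and Noxa1. Of 32536 windows of the same length, 7.79% held TGATAA at least 1 time, 0.0707% (23 windows) held it at least 3 times and 23.4% held GAGGAA. These shares were not matched for base content. G and C made up 38.0% of the Nox1 window and 34.0% of the Cybb window, against a median of 52.4% over all windows, and TGATAA is mostly A and T. A match is a match of 6 letters and not a shown binding site. Only these exact letters were searched, and near variants were not marked, such as agataa in the Cybb window and ggaa in the Cybb and Nox4 windows. The absence of a match is therefore not the absence of a possible site. The windows also differed in CpG content. The observed over expected CpG ratio was 0.226 for Nox1 and 0.139 for Cybb, against 0.711 for Nox4 and 0.964 for Noxo1 and a median of 0.378 over all windows. No methylation of these windows was analysed here.

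All 7 libraries were deep, with 33143619 to 45140743 read pairs on genes and 21054 to 21819 genes above 0. Kit, Cd34 and Flt3, which define or mark early progenitors, had mean normalized counts of 28597, 32235 and 23534, and the sum of 9 LSK markers ranged from 107414 to 119972 over the wild-type libraries and from 107741 to 110380 over the PROSER1 KO libraries. RNA of other lineages was present too. The 10 B-lineage and plasma cell markers, led by Ighm, Igkc and Jchain, held 3.37% to 7.85% of all normalized counts, and 17 granulocyte and monocyte markers summed to 30495 to 36170. Macrophage markers (9 genes) summed to 1124 to 1816, T and NK cell markers (8) to 2419 to 3735, erythroid markers (7) to 622 to 1033 and epithelial and stromal markers (10) to 7174 to 7994, and Acta2 was at 0 in every library. The 6 megakaryocyte markers summed to 7062 to 8906 over the wild-type libraries and to 9238 to 12026 over the PROSER1 KO libraries, without overlap, and all 6 had a positive log2 fold change (median 0.36), 1 of them at an unadjusted limma p under 0.05. This list, 1 of 8, was singled out after its values had been seen. Of single tested genes, 5.17% were higher in PROSER1 KO libraries without overlap, and 4.83% were lower. Of 8 tested macrophage markers, 7 were higher too (median 0.28), but the sums of that list overlapped between the groups. The correlations of the megakaryocyte list with 8 of the 9 genes are among the 64 relations adjusted for below. The strongest was with Ncf4 (Spearman's rho = -0.893, exact permutation p = 0.0123, adjusted p = 0.262). Pearson's r for Ncf4 was -0.57, and -0.06 with both groups centred on their means. For Nox1, r was -0.56, and 0.42 when centred. The list was not added to the limma model. None of the 76 markers was called by limma or DESeq2, which called 0.258% and 0.873% of all genes they tested. An unadjusted limma p under 0.05 was found for 8 markers, against 9.73% of all tested genes. Xist (1012 to 3003) and the Y-linked Ddx3y (3890 to 4421), Eif2s3y, Kdm5d and Uty were present in all 7 libraries. Xist differed 2.97-fold between the highest and the lowest library, and its part in the counts of the X-linked Nox1 and Cybb was not tested. Proser1 itself was not lower in the libraries labelled PROSER1 KO, at 2088 ± 55.5 (SD, n = 4) in wild-type and 2387 ± 67.5 (n = 3) in PROSER1 KO libraries (log2 fold change 0.19, SE 0.049, limma adjusted p = 0.204). Which bases of the gene the KO removes is not given in the sources used here, so this count does not check the labels, and every direction below rests on them.

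The levels of the 9 genes were set side by side as normalized count per kb of exon, in which the length of each gene is divided out. They spanned more than 3 orders of magnitude. Rac2 had the highest level (mean of 7 libraries 4039), followed by Cyba (2894), Ncf1 (1135), Ncf4 (825), Cybb (397), Noxo1 (70.4), Nox1 (35.7), Noxa1 (13.1) and Nox4 (1.06). The ranges of neighbours in this order did not overlap over the 7 libraries in any of the 8 pairs. With the longest transcript of each gene in place of all its exons, the order was the same but only 6 of the 8 pairs stayed apart, and Rac2 and Cyba, and Ncf1 and Ncf4, then overlapped. The closest neighbours were Ncf1 and Ncf4, with a mean level 1.38-fold apart, where the lowest library of Ncf1 (970.4) stood just above the highest of Ncf4 (960.1).

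**Figure D1:**
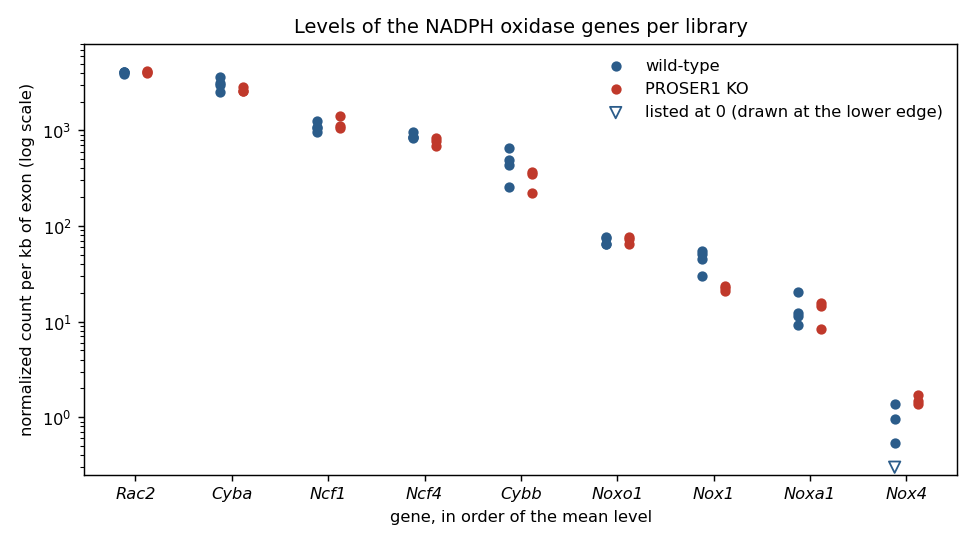
Normalized count per kb of exon (vertical, log scale) of the 9 NADPH oxidase genes (horizontal, in order of their mean) in each of 4 wild-type (blue) and 3 PROSER1 KO (red) libraries, with the library listed at 0 as an open triangle at the lower edge. The 5 genes of the phagocyte enzyme, from Rac2 to Cybb, lie between 219 and 4144, and Noxo1, Nox1, Noxa1 and Nox4 lie at 76.8 or lower.

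The genes of the phagocyte enzyme had the higher RNA levels. Among the catalytic genes, Cybb made up 90.5% ± 1.83 (SD, n = 4) of their summed level per kb in wild-type and 92.5% ± 2.21 (n = 3) in PROSER1 KO libraries. Nox1 made up 9.37% ± 1.80 and 6.98% ± 2.03, and Nox4 0.143% ± 0.0957 and 0.480% ± 0.190. The share of Nox1 overlapped between the groups, at 7.23% to 11.2% in wild-type libraries against 5.38% to 9.26% in PROSER1 KO libraries. Per kb, Cybb was 7.91 to 17.5 times as high as Nox1, and Ncf1 was 13.9 to 22.2 times as high as Noxo1, which takes its place beside NOX1. Noxo1 shares 2122 of its 3013 bases of exon with Tbl3 on the other strand, so that its level per kb depends on how read pairs there were counted. The level of Cyba exceeded that of Cybb 5.52-fold to 11.7-fold. Rac2, the blood cell form of RAC, was 1.70 to 1.85 times as high as Rac1, the form made in most tissues.

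The difference between the groups was estimated with limma for 8 of the 9 genes, since Nox4 fell below the minimum mean of 10 normalized counts. Calls needed a fold change above 1.5 and a p-value under 0.05 after Benjamini-Hochberg adjustment over 16251 genes, and 0.258% of these genes met both. None of the 8 genes was called by limma, and 2 (Nox1 and Ncf4, both lower in PROSER1 KO libraries) had an unadjusted p under 0.05, against 9.73% of all genes. edgeR, which called 0.246% of the same genes, also called none of the 8. DESeq2, which the study used and which called 0.873% of 18903 genes with an adjusted p, called Nox1 and no other of the 9. Nox1 was chosen from this contrast, so nothing is read from its place in these counts. The median log2 fold change of the 7 tested genes other than Nox1 was -0.04, beside 0.00 over all genes.

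Nox1 (ENSMUSG00000031257, chromosome X, 134086421 to 134221956 of GRCm38, minus strand) had 151, 183, 100 and 170.4 normalized counts in wild-type libraries 1 to 4 and 68.8, 74.5 and 78.7 in PROSER1 KO libraries 1 to 3. The lowest wild-type library, replicate 3, lay above the highest PROSER1 KO library, so the groups did not overlap. A complete separation with PROSER1 KO lower occurred for 4.83% of all tested genes, and with PROSER1 KO higher for 5.17%. The means were 151 ± 36.5 (SD, n = 4) and 74.0 ± 4.95 (n = 3). Wild-type libraries thus had 2.04 times the count of PROSER1 KO libraries (log2 fold change -0.99, SE 0.23, 95% interval -1.49 to -0.48, not corrected for the choice of the gene). These values rest on 87 to 203 read pairs per wild-type and 66 to 88 per PROSER1 KO library. As values that belong to the choice of the gene and not as tests, the adjusted p was 0.163 with limma, 0.171 with edgeR and 0.00471 with DESeq2 (log2 fold change -1.03, SE 0.25). Wild-type replicate 3 was the lowest of its group, and without it limma gave -1.17 and an adjusted p of 0.047, so that Nox1 was then called.

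Gene models bear on what a Nox1 count is. In GENCODE M21, the Nox1 model spans Xkrx, a gene on the same strand (mean 118 normalized counts, log2 fold change -0.17), and shares 399 bases of exon with Cstf2 on the other strand (mean 5348, log2 fold change -0.04). The RefSeq start site used for the sequence shown above lies inside that model. The study's methods name a directional library kit, but whether strand was used in counting is not given in the sources used here. How read pairs in the bases shared by Nox1 and Cstf2 were counted is therefore not known.

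Cybb (ENSMUSG00000015340, chromosome X, 9435252 to 9487771, minus strand) had 2825, 2541, 1500.0 and 3830 normalized counts in the wild-type libraries and 2120, 1271 and 2049 in the PROSER1 KO libraries. The groups overlapped, since wild-type replicate 3 lay below PROSER1 KO replicates 1 and 3. The means were 2674 ± 958 (SD, n = 4) and 1813 ± 471 (n = 3), with a log2 fold change of -0.52 (SE 0.29, 95% interval -1.17 to 0.13, limma adjusted p = 0.597). It was -0.32 without wild-type replicate 4 and -0.28 without PROSER1 KO replicate 2.

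Nox4 (ENSMUSG00000030562, chromosome 7, 87246096 to 87398710, plus strand) was near the limit of detection, at 0, 8.11, 4.60 and 11.6 normalized counts in the wild-type libraries and 12.5, 14.4 and 11.5 in the PROSER1 KO libraries. This was 0 to 10 read pairs per wild-type and 12 to 17 per PROSER1 KO library, and a count of 0 in wild-type replicate 1 allows up to 2.88 normalized counts (3 read pairs, counting error only). Wild-type replicate 4 and PROSER1 KO replicate 3 lay at the same level, and the groups overlapped. Without a filter on low values, limma gave a log2 fold change of 1.45 and an adjusted p of 0.705, and DESeq2 gave 1.09 (SE 0.88) and 0.833, so that no difference could be shown at this depth.

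**Figure D2:**
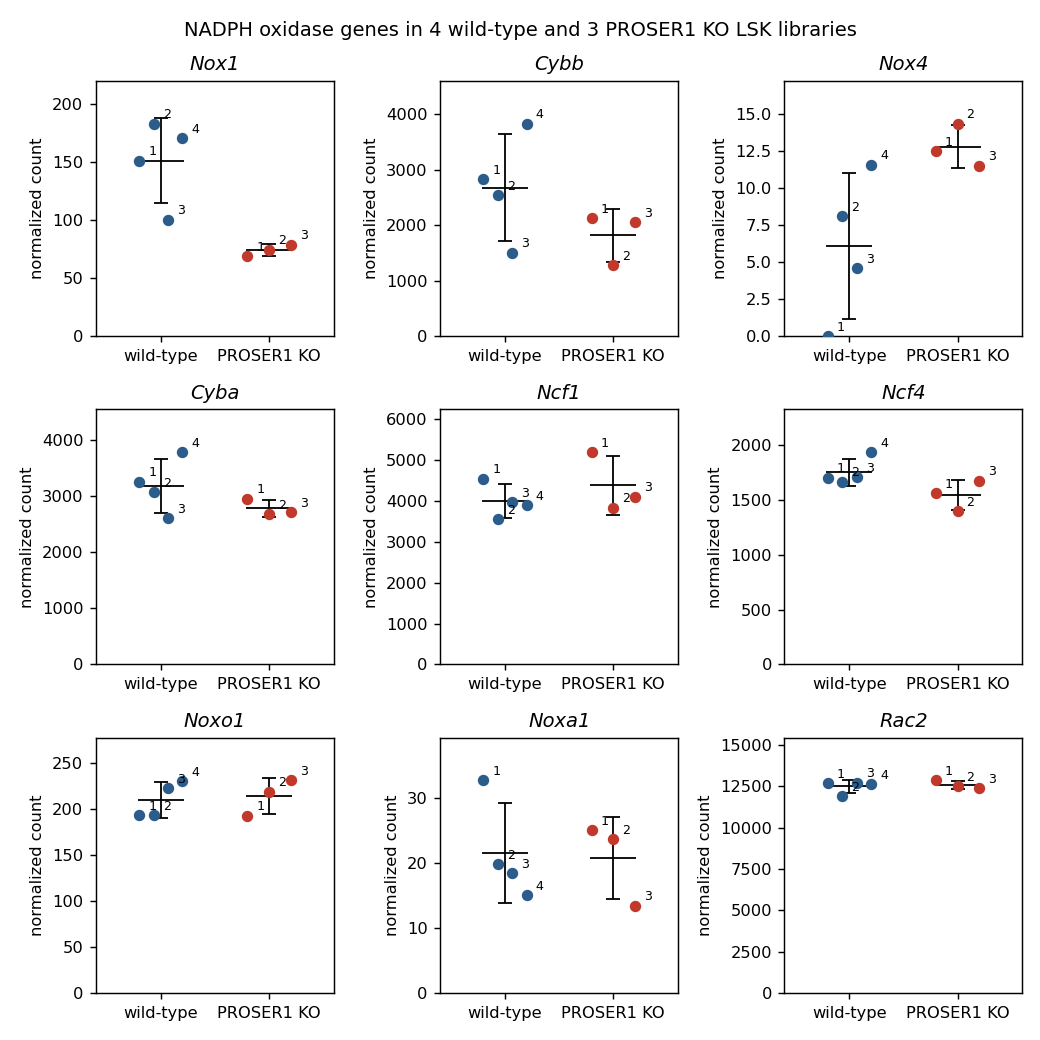
Normalized count (vertical, from 0) of each of the 9 genes in wild-type (blue, n = 4) and PROSER1 KO (red, n = 3) libraries, with the replicate number beside each point and the mean ± SD in black. Only the Nox1 points do not overlap between the groups, with 68.8 to 78.7 in PROSER1 KO and 100 to 183 in wild-type libraries. Nox1 was chosen on this contrast. Over all tested genes, 4.83% were lower and 5.17% higher in PROSER1 KO libraries without overlap.

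The membrane partner Cyba (ENSMUSG00000006519, chromosome 8, 122424776 to 122432930, minus strand) had 3255, 3071, 2606 and 3783 normalized counts in wild-type libraries and 2954, 2671 and 2707 in PROSER1 KO libraries. Wild-type replicate 3 was the lowest of all 7 and replicate 4 the highest, and the groups overlapped. The log2 fold change was -0.18 (SE 0.11, 95% interval -0.43 to 0.06, limma adjusted p = 0.623). It was -0.10 without wild-type replicate 4 and -0.27 without wild-type replicate 3.

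Of the cytosolic subunits of the phagocyte enzyme, Ncf1 (ENSMUSG00000015950, chromosome 5, 134220053 to 134229625, minus strand), the organizer, had 4550.3, 3554, 3975 and 3895 normalized counts in wild-type libraries and 5199, 3838 and 4102 in PROSER1 KO libraries. PROSER1 KO replicate 1 was the highest library, the other 6 overlapped, and the log2 fold change was 0.13 (SE 0.11, limma adjusted p = 0.755). Without that library it was -0.0036. Ncf1 shares 408 bases of exon with Gtf2ird2 on the other strand. Ncf4 (ENSMUSG00000071715, chromosome 15, 78244801 to 78262580, plus strand), whose product binds the lipids of the phagosome, had 1705, 1669.5, 1710.3 and 1939 normalized counts in wild-type libraries and 1563, 1401 and 1676 in PROSER1 KO libraries. Wild-type replicate 2 and PROSER1 KO replicate 3 overlapped narrowly, and the log2 fold change was -0.18 (SE 0.078, 95% interval -0.36 to -0.01, unadjusted p = 0.0418 and adjusted p = 0.484 with limma). It was -0.12 without PROSER1 KO replicate 2.

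The partners of NOX1 lay at like counts in both groups. Noxo1 (ENSMUSG00000019320, chromosome 17, 24696234 to 24700529, plus strand) had 193, 194, 223 and 231 normalized counts in wild-type libraries and 193, 219 and 231 in PROSER1 KO libraries, ranges that were almost the same (log2 fold change 0.03, SE 0.13, 95% interval -0.27 to 0.33, limma adjusted p = 0.968). Noxo1 shares 2122 of its 3013 bases of exon with Tbl3 on the other strand, whose mean was 2210.0. Its count may therefore be too high or too low, depending on how read pairs in the shared bases were counted. Noxa1 (ENSMUSG00000036805, chromosome 2, 25085667 to 25095149, minus strand), the activator, had 32.7, 19.8, 18.4 and 15.1 in the wild-type group and 25.04, 23.7 and 13.4 in PROSER1 KO libraries. The highest and the lowest library fell in different groups but the ranges overlapped almost fully (log2 fold change -0.04, SE 0.39, 95% interval -0.92 to 0.83, limma adjusted p = 0.985). The interval of Noxa1 is wide enough to hold a change as large as 1.5-fold in either direction.

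Rac2 (ENSMUSG00000033220, chromosome 15, 78559167 to 78572783, minus strand), the GTPase of the complex, was the steadiest of the 9, with 12694, 11922, 12714 and 12649.9 normalized counts in wild-type libraries and 12860.3, 12508 and 12389.8 in PROSER1 KO libraries. Its log2 fold change was 0.01 (SE 0.043, 95% interval -0.09 to 0.11, limma adjusted p = 0.962), an interval that excludes a 1.5-fold change.

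The 9 genes also differed in how far replicates of 1 group lay apart. The within-group SD of Cybb on the log2 scale was 0.508, larger than that of 98.0% of 2681 genes of like level, whose median was 0.0806. Ncf1 (0.185) and Cyba (0.179) were more variable than 96.3% and 94.9% of genes of like level, whereas Rac2 (0.039) and Noxo1 (0.133) were less variable than most, with only 10.9% and 12.1% of genes below them. Nox1 (0.306) was close to the median of its level (0.284).

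**Figure D3:**
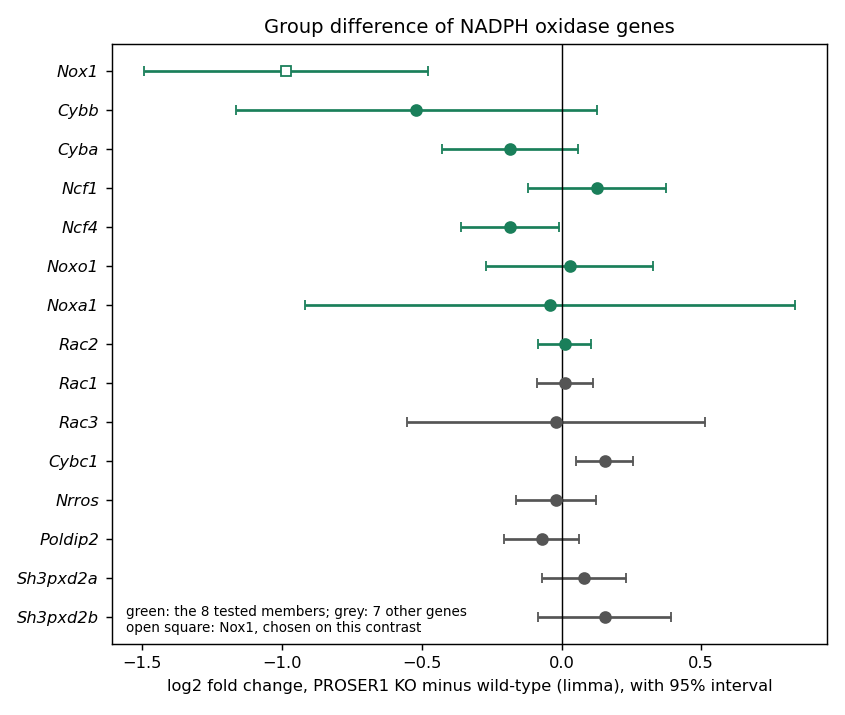
Log2 fold change of PROSER1 KO over wild-type libraries (horizontal, limma, with 95% intervals) of 8 of the 9 genes (green, Nox4 not tested) and of 7 other NADPH oxidase genes (grey). Nox1 (open square, chosen on this contrast) lies at -0.99, Cybb at -0.52 and the other 13 between -0.18 and 0.15.

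Cybb and Cyba varied among the libraries together with the summed B-lineage and plasma cell markers, of which the immunoglobulin genes Ighm and Igkc and the plasma cell gene Jchain held 99.5% to 99.6% in each library. B cells are known to make the phagocyte oxidase too. The summed share of these 10 markers was 6.19%, 5.27%, 3.59% and 7.85% of all normalized counts in wild-type libraries and 4.81%, 3.37% and 4.83% in PROSER1 KO libraries, so that wild-type replicate 4 was highest and PROSER1 KO replicate 2 lowest, as they were for Cybb. The other 7 markers summed to 10252, 8713, 6029 and 13650.4 normalized counts in the wild-type group and to 8217, 5898 and 9243 in PROSER1 KO libraries, with the same libraries at the top and the bottom. The B-lineage transcription factors Ebf1 and Pax5 did not follow this order. Their counts were highest in PROSER1 KO replicate 1, that of Pax5 was lowest in wild-type replicate 4, and they were the 2 markers of the list with a higher mean log2 count in PROSER1 KO libraries (log2 fold change 0.75 and 0.99, limma adjusted p = 0.494 and 0.497). Xist was also highest in wild-type replicate 4 (3003) and lowest in PROSER1 KO replicate 2 (1012). Over the 7 libraries and on the log2 scale, the Cybb count followed the sum of the list with Pearson's r = 0.990 (exact permutation p = 0.000397, two-sided, adjusted p = 0.0254 over 64 relations of 8 genes with 8 marker lists) and Spearman's rho = 0.964 (exact permutation p = 0.00278, adjusted p = 0.178). Without the 2 libraries farthest from the median of the list (wild-type replicate 4 and PROSER1 KO replicate 2), r was 0.979, and with both groups centred on their means it was 0.991. The ratio of the 2 quantities was narrow, with 0.987 to 1.25 Cybb counts per 1000 counts of the list, although Cybb itself differed 3.01-fold between its highest and lowest library.

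Cyba showed the same pattern with r = 0.942 (exact permutation p = 0.000794, adjusted p = 0.0254) and rho = 0.929 (exact permutation p = 0.00675, adjusted p = 0.216), and r was 0.892 without those 2 libraries. Among 13102 genes with a mean of at least 50, Cybb ranked 7 and Cyba 133 by this correlation, where the markers of the list count among the genes. For Nox1, r was 0.678 (exact permutation p = 0.107, adjusted p = 0.927) and rho 0.714 (exact permutation p = 0.0881, adjusted p = 0.914), and r was 0.441 without the 2 libraries. For Ncf4, r was 0.780 (exact permutation p = 0.0433, adjusted p = 0.692) and rho 0.607 (exact permutation p = 0.167, adjusted p = 0.914), and r was -0.05 without the 2 libraries, so that it rested on them. The other 4 genes (Ncf1, Noxo1, Noxa1 and Rac2) had r between -0.12 and 0.08.

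**Figure D4:**
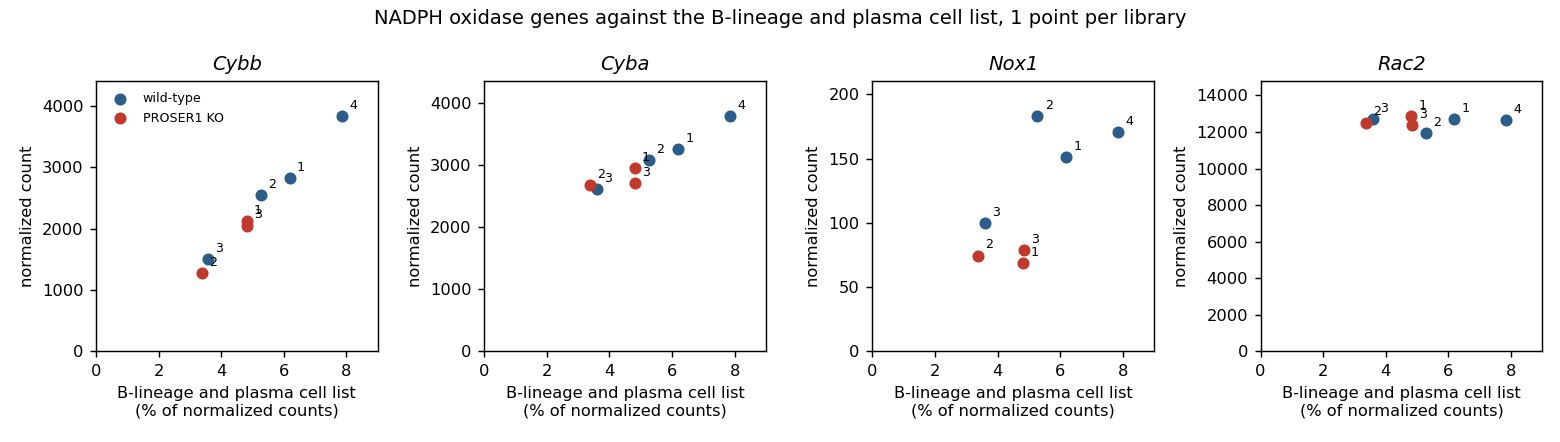
Normalized counts of Cybb, Cyba, Nox1 and Rac2 (vertical, from 0) against the share of all normalized counts held by 10 B-lineage and plasma cell markers (horizontal, percent), 1 point per library with its replicate number, wild-type in blue and PROSER1 KO in red. The Cybb and Cyba points of both groups rise together from 3.37% to 7.85%, the 3 PROSER1 KO points of Nox1 lie at or below 78.7, and Rac2 is level.

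When the log2 sum of this list, which is in effect that of Ighm, Igkc and Jchain and not of Ebf1 and Pax5, was added to the limma model as a covariate, a model chosen after the data had been seen, the group difference of Cybb went from -0.52 to -0.09 (SE 0.066, adjusted p = 0.680) and that of Cyba from -0.18 to -0.04 (SE 0.063, adjusted p = 0.861). The difference of Nox1 went from -0.99 to -0.81 (SE 0.22, adjusted p = 0.261), with no test implied for this gene. The covariate came from the same 7 libraries and followed Cybb at r = 0.990 and Cyba at r = 0.942. The smaller differences of Cybb and Cyba therefore restate these correlations and add no evidence to them. In bulk RNA, fewer cells of a type and less RNA per cell cannot be told apart, and the part of B-lineage or plasma cells in these counts was not tested.

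Of 12 further genes of the NADPH oxidases, 7 were tested, 4 were higher and 3 lower in PROSER1 KO libraries, and none was called by limma, edgeR or DESeq2. Their log2 fold changes lay between -0.07 (Poldip2, which binds p22phox) and 0.15 (Sh3pxd2b, an organizer), with a median of 0.01. Rac1 was at a log2 fold change of 0.01. The gene with an unadjusted p under 0.05 was Cybc1, which encodes a chaperone that NOX2 and p22phox need to mature. Cybc1 was at 3520.4 ± 92.8 in wild-type and 3917 ± 109 in PROSER1 KO libraries without overlap (log2 fold change 0.15, SE 0.045, limma adjusted p = 0.288), opposite in sign to Cybb and Cyba. Over all tested genes, 5.17% were higher in PROSER1 KO libraries without overlap, and 9.73% had an unadjusted limma p under 0.05. Rac1 and Cybc1 were named after their values had been seen. Nox3, Duox1 and Duoxa2 were at 0 in all 7 libraries, and Duox2 (1.92) and Duoxa1 (3.84) were above 0 in PROSER1 KO replicate 3 alone, so that of the mouse NOX family only Cybb, Nox1 and traces of Nox4 and Duox2 were detected.

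None of the 49 genes of 4 lists around the enzymes, of which 48 were tested, was called by limma, edgeR or DESeq2, which called 0.258%, 0.246% and 0.873% of all genes. 1 (Pik3cg) had an unadjusted limma p under 0.05, against 9.73% of all tested genes. Of 19 activators and regulators, 10 were higher and 9 lower in PROSER1 KO libraries (median log2 fold change 0.01). The largest differences were those of Prkcz (-0.77, limma adjusted p = 0.6252), an atypical protein kinase C, and Pik3cg (0.18, SE 0.043, limma adjusted p = 0.174), the catalytic subunit of PI3-kinase gamma. Pik3cg had 7498 ± 274 normalized counts in wild-type libraries and 8508 ± 33.3 in PROSER1 KO libraries without overlap, and DESeq2 gave it an adjusted p of 0.0192 at a fold change under 1.5. Of 9 genes that supply NADPH, 3 were higher and 6 lower (median -0.04), with the largest difference at Me1 (0.29, limma adjusted p = 0.787), the cytosolic malic enzyme. Pgd (-0.07) and Idh1 (-0.12), enzymes that reduce NADP in the cytosol, were lower without overlap, and the limma adjusted p-values were 0.615 and 0.581. Over all tested genes, 4.83% were lower and 5.17% higher in PROSER1 KO libraries without overlap. Pgd was named after its values had been seen.

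Of 12 tested genes that remove superoxide or peroxide, 4 were higher and 8 lower (median -0.01), with the largest differences at Gpx3 (0.36, limma adjusted p = 0.850) and Prdx4 (-0.18, adjusted p = 0.581). Of 8 target genes of NRF2, the factor that answers oxidative stress, 3 were higher and 5 lower (median -0.01), and the largest differences in each direction were those of Nqo1 (0.25, limma adjusted p = 0.621) and Hmox1 (-0.16, adjusted p = 0.867). The lowest adjusted p over these 2 lists was 0.540.

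Genes beside Nox1 on the X chromosome were examined too, and since Nox1 was chosen for its difference, a smaller difference of its neighbours is no finding. Of 48 genes whose start lies within 1 Mb of the Nox1 start in GENCODE M21, 20 were tested, none was called by limma, edgeR or DESeq2, and 13 were higher and 7 lower in PROSER1 KO libraries. Their log2 fold changes ran from -0.30 to 0.36 with a median of 0.05, beside a median of 0.03 over 558 tested genes of the X chromosome, of which 4 were called. The nearest tested gene to the start of Nox1 in GENCODE was Trmt2b, 55.0 kb away, with a log2 fold change of 0.09 (limma adjusted p = 0.708). Xkrx was 60 kb away. The RefSeq start site of Nox1 lies inside the GENCODE model, so that the distances and the nearest gene depend on the start that is taken. Zmat1, the 1 gene with an unadjusted limma p under 0.05 (against 9.73% of all tested genes), was at 0.21 (limma adjusted p = 0.468) and was named after its value had been seen.

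**Figure D5:**
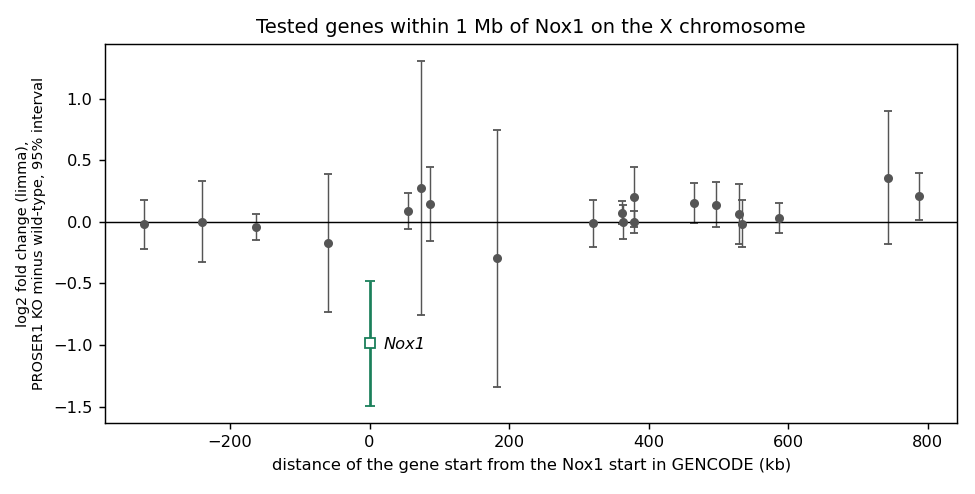
Log2 fold change of PROSER1 KO over wild-type libraries (vertical, limma, with 95% intervals) of the 20 tested genes within 1 Mb of Nox1 (grey), against the distance of their start from that of Nox1 in GENCODE (horizontal, kb), with Nox1, which was chosen on this contrast, as the open square at 0. The grey points lie between -0.30 and 0.36, and Nox1 lies at -0.99.

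Among 13101 other genes with a mean of at least 50, those whose log2 counts followed Nox1 most closely over the 7 libraries were Zfp984 (r = 0.982), Fkbp2 (0.982), Eif2ak1 (0.975), Tmtc4 (0.960) and Clba1 (0.952). All 5 were lower in PROSER1 KO libraries, as any gene that follows Nox1 over the 2 groups must be, by log2 fold changes of -0.15 to -0.47. When the groups were centred on their means, so that only the variation among replicates counted, the closest genes were Rtkn (0.987), Dennd2c (0.982), Tulp3 (0.982), Grin2d (0.976) and Ptges (0.971), none of which was among the first 5. The oxidase genes were not among these, which are the closest genes by selection. Over the 7 libraries Cybb ranked 609 (r = 0.732, above 95.4% of the genes), Cyba 647 (0.724, 95.1%) and Ncf4 904 (0.680, 93.1%). Noxo1, the partner of NOX1, ranked 8190 (-0.19). With the groups centred, Cybb ranked 669 (0.693), Cyba 765 (0.673) and Ncf4 4288 (0.200). The points of these correlations are 7 libraries that share their scaling, so the values are a description.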

How the data were processed

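PolyA RNA of sorted LSK cells was sequenced in 4 wild-type and 3 PROSER1 KO libraries, grouped by their labels. Per the submitters' processing notes and the study's methods, the authors used Trimmomatic for trimming, STAR for mapping to mm10, featureCounts for read pairs per gene and DESeq2 for size factors, by which counts were divided. The deposited table holds this normalized signal for each gene, and all its values were whole multiples of 1 step per library within 0.01 read pairs, from which read pairs were recovered. The study's methods and the table header name different GENCODE releases. The file held 0 columns of other samples.

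The main comparison used limma 3.58.1 (lmFit, eBayes with trend, R 4.3.3) on log2 of the normalized count plus 1, for the 16251 genes whose mean reached 10. Fold changes on this scale understate the change of genes with low counts. Intervals are at 95%. edgeR 4.0.16 (quasi-likelihood) and DESeq2 1.42.0 on recovered read pairs, other pseudocounts, filters and normalizations, the replicate number as a block and each library left out were alternatives. The procedures were tested on simulated data. Exact permutation tests were two-sided.

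The 9 genes, the gene lists and the tests were chosen with earlier results of these data known. Named genes were the 9, the genes with the largest and smallest log2 fold change among other NADPH oxidase genes, those with the largest absolute log2 fold changes in each other list (at most 3), the 5 genes most like Nox1 in each way, the nearest gene and the genes that check the labels. A gene of the designed list of other NADPH oxidase genes is not reported here. Positions and exon lengths come from GENCODE M21 (GRCm38), and sequences from RefSeq (GRCm38.p6). The floor of 3 read pairs covers counting error only.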

Additional observations from a re-analysis of the deposited data

Results flagged for a closer look

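Of 64 genes checked among the 4 wild-type libraries, 3 had 1 library far from the other 3, and chance alone sets a library apart in about 1 of 20 groups. Ncf4 was highest in wild-type replicate 4, at 1939 normalized counts against 1669.5 to 1710.3 in the other 3. Rac2 was lowest in wild-type replicate 2, at 11922 against 12649.9 to 12714. Gpx3, a secreted glutathione peroxidase, was highest in wild-type replicate 4, at 44.1 against 13.5 to 16.1.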

How the results depend on the processing

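The 5 gene lists around the 9 genes and the genes near Nox1 had 0 calls under each alternative run for them (limma, edgeR and DESeq2 included), and the 9 genes had 0 calls except for Nox1, which was called with DESeq2 (1 call) and without wild-type replicate 3 (calls with a library left out ranged from 0 to 1). With each library left out in turn, the log2 fold change ranged from -1.17 to -0.88 for Nox1 (adjusted p 0.047 to 0.370 with limma), from -0.77 to -0.28 for Cybb, from -0.27 to -0.10 for Cyba and from -0.24 to -0.12 for Ncf4. Nox1 was chosen on this contrast, so its calls and p-values in this section are a description and not tests. The sign of genes near 0 turned: Ncf1 ranged from -0.0036 to 0.22, Noxo1 from -0.027 to 0.10, Noxa1 from -0.20 to 0.23 and Rac2 from -0.012 to 0.022. Calls over all genes numbered 42, and 165 with DESeq2, 17 without the variance trend, 80 with robust variance estimates and 23 without PROSER1 KO replicate 2. Same-numbered replicates did not deviate together (correlations 0.02, 0.06 and -0.11). The labels do not say whether same-numbered libraries were handled together, and these correlations cannot settle it. With the replicate block, 35 genes and none of the 9 were called, and Nox1 was at -0.92 (limma adjusted p = 0.334). Replicate 4 exists in the wild-type group only, so the block takes up that library. The Nox1 estimate was the same, -0.92, without wild-type replicate 4. The cause of the differences between settings was not tested. Depth limits Nox4 (0 to 17 read pairs) and Noxa1 (13 to 34), and 4 against 3 libraries limit all tests.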
